A study of Mus musculus with 16 samples.

Results

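The polyamine synthesis enzymes were 8 genes, chosen by name as the enzymes that lead from arginine to spermine: Odc1, Amd1, Amd2, Srm, Sms, Arg1, Arg2 and Agmat. All 8 were among the 32989 gene identifiers counted, and 7 had a mean count of at least 5 over the libraries and were tested. Agmat did not pass. The libraries came from hair follicle stem cell (HFSC) organoids grown from epidermal cells of 4 C57BL/6J mice, without a transgene or deletion, in the 3D–3C culture for 2 weeks. Organoids were left untreated or were given the acetylated polyamine N1-acetylspermidine (N1-AcSpd) over 72 h. Sorting on α6 integrin and CD34 separated progenitors (α6+/CD34−) from HFSCs (α6+/CD34+). Each mouse gave 1 library to each of the 4 groups (untreated CD34−, untreated CD34+, N1-AcSpd CD34− and N1-AcSpd CD34+), 16 in all, and the donor mice are given as telogen animals of both sexes. The cells are an organoid model without dermis, and both populations share the culture and its medium.

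Polyamines are small positively charged molecules that bind RNA and DNA and are needed for growth and translation. Arginase (Arg1 in the cytosol, Arg2 in mitochondria) cleaves arginine to ornithine, and ornithine decarboxylase (Odc1) turns ornithine into putrescine, while agmatinase (Agmat) can make putrescine from agmatine. S-adenosylmethionine decarboxylase (Amd1 and its copy Amd2) makes the aminopropyl donor, which spermidine synthase (Srm) and spermine synthase (Sms) transfer in turn. Cells are known to restrain Odc1 and Amd1 largely at translation and protein turnover when polyamines are plentiful, so mRNA levels do not measure enzyme activity.

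Library totals ran from 15480075 to 29074855 unique molecular identifiers (UMIs, tags that mark single molecules). Levels are given as CPM, counts scaled to a common library total (TMM). The sort marker Cd34 was higher in CD34+ cells by 3.97 (untreated) and 4.03 (N1-AcSpd) on the log2 scale, and the summed level of 6 bulge and sort markers ran from 115.5 to 152 CPM in CD34− and from 400.6 to 653.3 CPM in CD34+ libraries. Most of the CD34+ sum was Krt15, at a mean of 393 (untreated) and 300.4 CPM (N1-AcSpd). Lgr5, also among the 6, did not pass in either condition (log2 0.12, edgeR adjusted p 0.949, and 0.89, adjusted p 0.495). Itga6, the α6 integrin gene, was detected in all groups and was lower in CD34+ cells by 0.34 and 0.17 on the log2 scale.

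Amd1 and Amd2 are shown first because their sequences set what can be said of them. Amd1 (ENSMUSG00000075232, chr10:40287458-40302186 on GRCm38, minus strand) has 8 exons, whereas Amd2 (ENSMUSG00000063953, chr10:35708675-35711892, minus strand) is 1 exon of 3218 bases. Over 3204 aligned bases the 2 transcripts differed at 14 positions, an identity of 99.56%. Within the coding sequence of 1005 bases there was 1 difference, G796C (Amd1's base first, positions counted from 1 at the start codon). The stretches upstream of the 2 transcription starts did not share this identity. Position by position, RefSeq promoter windows (build GRCm38.p6) matched at 25.6% of their 250 upstream positions. No gaps were allowed, so an offset between the windows would lower this share. The last 100 bases before each start are printed to show the difference. Capitals mark the letters TATAA where they lay between 40 and 20 bases before the start.
Amd1, chr10:40302189-40302288, minus strand: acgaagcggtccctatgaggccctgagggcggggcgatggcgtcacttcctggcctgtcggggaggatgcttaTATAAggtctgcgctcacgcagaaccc
Amd2, chr10:35711892-35711991, minus strand: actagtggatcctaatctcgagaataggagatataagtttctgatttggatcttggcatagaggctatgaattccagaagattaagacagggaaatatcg

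The letters TATAA stood at that place on the gene's strand in the Amd1 window, not in the Amd2 window, and in 3.31% of all 32851 windows. Downstream of the start, both copies carried the same short reading frame ahead of the main one. Its start codon lay at base 14 after the start in Amd1 and base 12 in Amd2, and the 11 bases directly before it were identical. This frame is known from Amd1 as the element through which polyamines slow translation of the enzyme. It is shown, with 4 bases on either side, in capitals from its start codon to its stop codon (7 codons with the stop).
Amd1, chr10:40302151-40302179, minus strand: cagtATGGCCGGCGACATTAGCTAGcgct
Amd2, chr10:35711856-35711884, minus strand: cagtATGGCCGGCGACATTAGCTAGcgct

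Counts followed the sequences. In the 16 libraries the Amd1 count minus the Amd2 count ran from -31 to 22 UMIs, against a counting error (the square root of the summed counts) of 43.4 to 59.5. The 2 genes thus differed by less than the noise of 2 separate counts in every library, and were treated as 1 measurement counted for both. A processed pseudogene, Amd-ps3, whose model of 1005 bases differs from the Amd1 coding sequence at 1 position, received 0.563 to 0.632 times the Amd1 count in the same libraries. Which of the 3 loci the molecules came from could not be told from the counts. The plot of the copies' counts shows both relations.

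**Figure D1:**
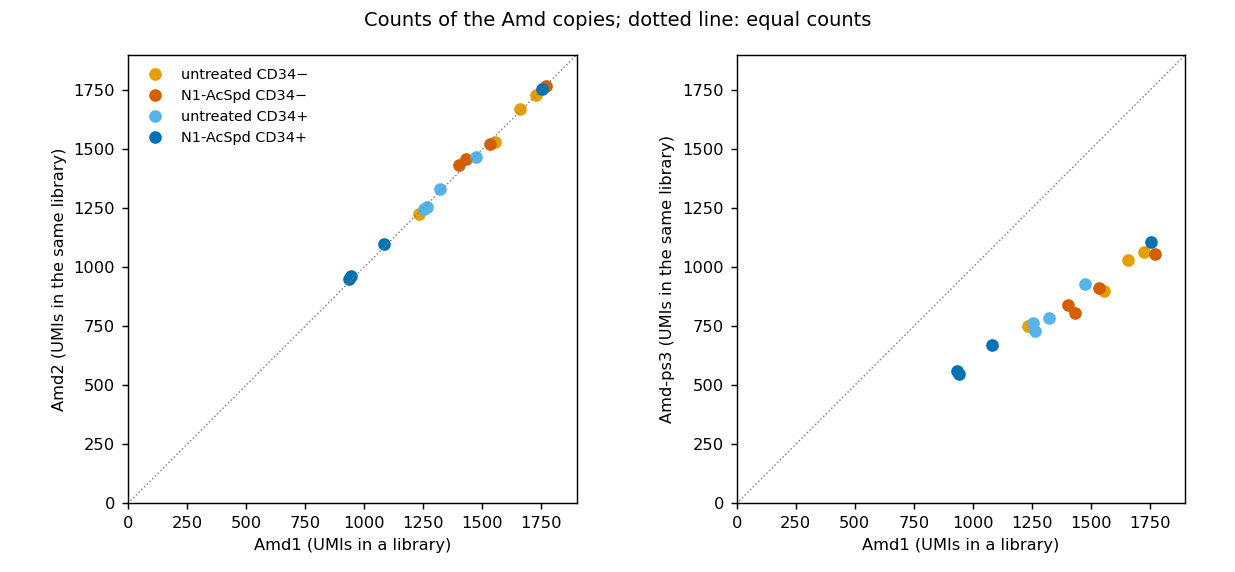
UMI counts of Amd2 (left) and of the pseudogene Amd-ps3 (right) against the Amd1 count of the same library, 16 libraries coloured by group, with a dotted line at equal counts. Amd2 lies on the line, from 31 UMIs above Amd1 to 22 below it, and Amd-ps3 lies on a lower line at 0.563 to 0.632 times Amd1 in every group.

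The first question was how α6+/CD34+ HFSCs differ from α6+/CD34− progenitors. The enzymes that make putrescine and spermidine, Odc1 and Srm, were lower in untreated HFSCs, at 0.674 and 0.703 times the progenitor level, Sms was lower by less, and Amd1, Amd2 and Arg2 did not pass the test. In N1-AcSpd-treated cells Odc1, Srm and Sms were lower as well. Arg1 was near the detection limit in HFSCs. In untreated cells 4 of the 7 tested members were called, all lower, where 32.1% of 19049 genes were called in either direction, 16.1% higher and 16.1% lower. In N1-AcSpd cells the members again gave 4 of 7, all lower, against 33.3% of all genes (16.5% higher and 16.8% lower). Both counts include Arg1, which passed the count filter through its CD34− counts alone and so lends them no support. Both also hold Amd1 and Amd2 as separate members, though these were treated as the same measurement. The CD34− libraries also held more of the 6 markers of differentiated keratinocytes, all 6 of which were called lower in CD34+ cells in both conditions: 386.9 to 632 CPM summed, against 152.1 to 189.5 CPM in CD34+ libraries. The part of this in the members' differences was not tested, and in bulk RNA fewer cells of a type and less RNA per cell cannot be told apart.

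Odc1 (ENSMUSG00000011179, chr12:17544794-17551505, plus strand, 12 exons), like Amd1 a rate-limiting enzyme of the pathway, was at 54.3, 72.8, 62.9 and 78.1 CPM in the untreated CD34− libraries of mice 1 to 4. In the untreated CD34+ libraries it was at 45.8, 47.0, 44.9 and 43.0 CPM. The groups did not overlap, and the CD34− libraries were spread over a far wider range than the CD34+ libraries. The log2 fold change was -0.57 (SE 0.092, edgeR adjusted p 0.000343), or 0.674 times the CD34− level, and the gene was lower in 4 of 4 mice. After N1-AcSpd, the CD34− libraries held 52.3, 59.7, 60.1 and 61.7 CPM and the CD34+ libraries 43.9, 43.2, 40.5 and 39.7 CPM. These did not overlap either, and the log2 fold change was -0.48 (SE 0.092, edgeR adjusted p 0.000984). The small nucleolar RNA gene Gm22748 lies within Odc1 on the same strand and had 1 to 11 counts a library, against 660 to 1731 for Odc1.

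Srm (ENSMUSG00000006442, chr4:148591503-148594993, plus strand, 7 exons), which makes spermidine from putrescine, was at 46.6, 47.1, 42.3 and 42.4 CPM in untreated CD34− libraries. In the untreated CD34+ libraries of the same mice it was at 31.0, 34.0, 32.7 and 27.6 CPM, below every CD34− library. The log2 fold change was -0.51 (SE 0.072, edgeR adjusted p 0.000113). With N1-AcSpd the CD34− libraries held 44.9, 52.6, 53.0 and 48.7 CPM and the CD34+ libraries 37.5, 36.9, 37.0 and 33.2 CPM. Again no CD34+ library reached a CD34− library, and the log2 fold change was -0.46 (SE 0.072, edgeR adjusted p 0.000216). Odc1 and Srm kept their calls in both conditions whichever of the 16 libraries or 4 mice was left out.

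Sms (ENSMUSG00000071708, chrX:157443855-157492287, minus strand, 11 exons), which turns spermidine into spermine, gave a smaller difference. Untreated CD34− libraries held 8.52, 9.71, 8.23 and 8.53 CPM, whereas their CD34+ counterparts held 7.68, 7.35, 7.81 and 6.37 CPM. The groups did not overlap but came within a small margin of each other, and the log2 fold change was -0.26 (SE 0.077, edgeR adjusted p 0.0186). With N1-AcSpd the values were 8.30, 8.73, 9.24 and 8.62 CPM in CD34− and 7.88, 7.46, 6.51 and 7.05 CPM in CD34+ libraries, which did not overlap (log2 -0.27, SE 0.076, edgeR adjusted p 0.0135). Both calls were lost when libraries were scaled by their totals in place of TMM (-0.15 and -0.16, adjusted p 0.205 and 0.141), a scaling that moved the median of all genes to 0.14 and 0.11. The untreated call was also lost without the CD34− library of mouse 2 (-0.21, adjusted p 0.0592), without the CD34+ library of mouse 4 (-0.21, 0.0885), without all libraries of mouse 2 (-0.21, 0.134) or mouse 4 (-0.21, 0.118), and, with only the 8 untreated libraries in the fit, at an adjusted p of 0.0508. The N1-AcSpd call was lost without mouse 3 (-0.20, adjusted p 0.112).

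**Figure D2:**
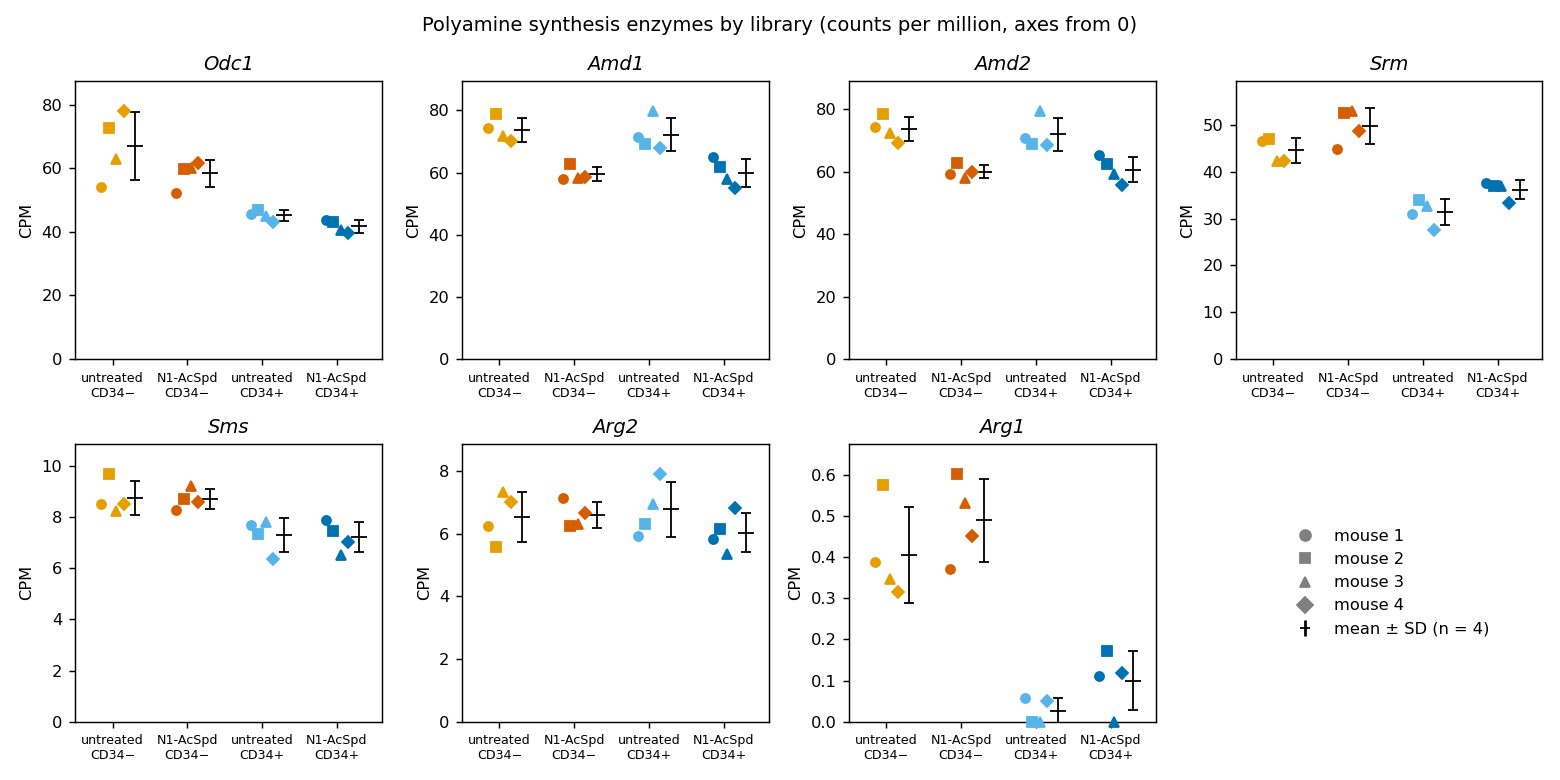
Level of each of the 7 tested members in every library (vertical axes, CPM from 0), by group, with 1 symbol per mouse and a black mean ± SD over 4 libraries. Odc1, Srm, Sms and Arg1 sit lower in both CD34+ groups than in both CD34− groups, whereas Amd1 and Amd2 sit lower in both N1-AcSpd groups than in both untreated groups and Arg2 overlaps throughout.

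Amd1 and Amd2 did not pass the test between the cell types. Amd1 was at 74.3, 78.7, 71.8 and 70.1 CPM in untreated CD34− and at 71.4, 69.4, 79.9 and 68.0 CPM in untreated CD34+ libraries, and the groups overlapped. The log2 difference was -0.03 (95% interval -0.16 to 0.10, edgeR adjusted p 0.780), so a difference of the size seen for Odc1 or Srm lay outside the interval. With N1-AcSpd it was 0.01 (-0.12 to 0.14, adjusted p 0.937). Under scaling by library totals the untreated value was 0.08, so no direction can be given. Amd2 gave -0.03 and 0.02.

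The arginases differed in kind. Arg2 (ENSMUSG00000021125, chr12:79130777-79156301, plus strand, 8 exons), the mitochondrial form, was at 6.24, 5.56, 7.32 and 6.99 CPM in untreated CD34− and at 5.92, 6.31, 6.94 and 7.92 CPM in untreated CD34+ libraries, and the groups overlapped. Its log2 difference was 0.05 (95% interval -0.18 to 0.28, edgeR adjusted p 0.788) in untreated and -0.13 (-0.35 to 0.10, adjusted p 0.417) in N1-AcSpd cells. The last 285 bases of Arg2 overlap the 3′ end of Vti1b on the opposite strand, which had 389 to 825 counts a library against 87 to 176 for Arg2, so reads could have been exchanged if strand was not used. That was not given in the sources used here.

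Arg1 (ENSMUSG00000019987, chr10:24915221-24927484, minus strand, 8 exons), the cytosolic form best known from liver and macrophages, had 94 UMIs in all. In untreated cells, 9, 9, 8 and 7 UMIs came from the CD34− libraries of mice 1 to 4, whereas the CD34+ libraries held 1, 0, 0 and 1. In treated cells it was 9, 17, 14 and 11 UMIs for CD34− and 3, 3, 0 and 2 for CD34+. Every CD34− library was thus above every CD34+ library of the same condition. Arg1 passed the filter through its CD34− counts alone, and its calls (edgeR log2 -3.63, adjusted p 0.00164, and -2.21, adjusted p 0.0122) are no support for a difference. The members that passed in every group gave 3 of 6 in each condition, with Amd1 and Amd2 counted separately, beside 32.1% and 33.3% of all genes. Summed over 4 libraries, the rate in CD34+ cells was 0.075 times that in untreated CD34− cells (exact binomial 95% interval 0.00872 to 0.293) and 0.225 times after N1-AcSpd (0.0921 to 0.477), intervals that cover counting error only. The call in N1-AcSpd cells was lost without mouse 1 (-2.37, adjusted p 0.0534) or mouse 4 (-2.32, adjusted p 0.0576). Of 6 immune markers, 2 or 3 had a UMI in each group, and their summed level was 0.817 to 3.38 CPM in CD34− against 0.854 to 2.91 CPM in CD34+ libraries in untreated cells, and 1.23 to 2.89 against 0.921 to 1.35 CPM in treated cells. Of the 2 that were tested, Ptprc passed in neither condition. Cd68 was lower in treated CD34+ cells (log2 -0.66, edgeR adjusted p 0.0239) but did not pass in untreated cells (log2 -0.35, adjusted p 0.255). Among the others, Lyz2 had at most 1 UMI in a group and Cd3e at most 4. The part of immune cells in the Arg1 values was not tested.

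Agmat (ENSMUSG00000040706, chr4:141746672-141759263, plus strand, 7 exons) was at the limit of detection. Mouse 4 gave 1 UMI in untreated CD34− cells and mouse 1 gave 2 in N1-AcSpd CD34+ cells, and the other 14 libraries held 0. The 2 groups without a UMI allow at most 0.0422 (untreated CD34+) and 0.028 (N1-AcSpd CD34−) CPM of the summed library totals, the limit that a count of 0 sets at 3 counts over the group.

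The second question was what N1-AcSpd changed in each cell type. In CD34− cells Amd1 and Amd2 fell to 0.806 and 0.814 times the untreated level, and no other member passed the test. This gave 2 of 7 members called, both lower and both the same measurement, where 0.614% of all genes were called, 0.373% higher and 0.241% lower. In CD34+ cells 0 of 7 members were called by edgeR, where 0.325% of all genes were called. There 3 members (Amd1, Amd2 and Srm) reached an unadjusted p under 0.05, while 2 (Amd1 and Amd2) were called by DESeq2. Of all genes, 13.2% reached that unadjusted p and 2.22% were called by DESeq2. Averaged over both cell types, 2 of 7 members were called, again Amd1 and Amd2, where 4.87% of all genes were called, 2.7% higher and 2.17% lower. On average 2 of the 6 markers of differentiated keratinocytes (Ivl and Sbsn) were higher after N1-AcSpd and 1 of the 6 bulge and sort markers (Krt15) was lower, the other 5 not being called. The 6 markers of differentiated keratinocytes summed to 463.8 to 632 CPM in treated against 386.9 to 431.2 CPM in untreated CD34− libraries. In CD34+ libraries they summed to 171.2 to 189.5 against 152.1 to 174.8 CPM. Most of the CD34− sum was Sbsn, at a mean of 432.2 CPM in treated and 336.5 CPM in untreated libraries. The part of these markers in the members' values was not tested.

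After N1-AcSpd, Amd1 in the CD34− libraries of mice 1 to 4 was at 57.9, 62.8, 58.3 and 58.7 CPM, below each of the 4 untreated CD34− values given above. In the CD34+ libraries it was at 65.1, 61.7, 57.9 and 54.9 CPM, also below all 4 untreated CD34+ libraries. Every mouse was lower in both cell types, with log2 differences from -0.36 to -0.26 in CD34− and from -0.47 to -0.13 in CD34+ cells. The log2 fold change was -0.31 (SE 0.062, edgeR adjusted p 0.0421) in CD34− cells and -0.27 (SE 0.062, adjusted p 0.0930, DESeq2 adjusted p 0.0081) in CD34+ cells. Averaged over the cell types it was -0.29 (SE 0.044, edgeR adjusted p 0.00396). Amd2 gave -0.30 (adjusted p 0.0429), -0.25 (adjusted p 0.104, DESeq2 0.0146) and -0.27 (adjusted p 0.00447). With both copies summed into 1 gene the values were -0.30 (adjusted p 0.0418), -0.26 (0.0959) and -0.28 (0.0040). Where the same tags were counted for both, such a sum repeats the values and is no separate check. The pseudogene Amd-ps3 gave -0.36 (edgeR adjusted p 0.0806), -0.26 (0.223) and -0.31 (0.0142), so the fall cannot be placed at a single locus.

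The call in CD34− cells alone was close to the threshold. It was lost for both copies without any 1 of the 8 CD34− libraries, without mouse 1 or 2 among the untreated CD34+ libraries, without mouse 2 among the N1-AcSpd CD34+ libraries, and without any whole mouse, with an Amd1 fold change from -0.34 to -0.28 over all runs that left libraries out and an adjusted p up to 0.211. Amd2 alone also lost it when mouse 4 was dropped from untreated CD34+ cells (-0.31, adjusted p 0.0518). The averaged Amd1 call was kept in every such run (-0.31 to -0.25, adjusted p up to 0.0467), and that of Amd2 was lost only without mouse 3 (-0.23, adjusted p 0.0529).

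**Figure D3:**
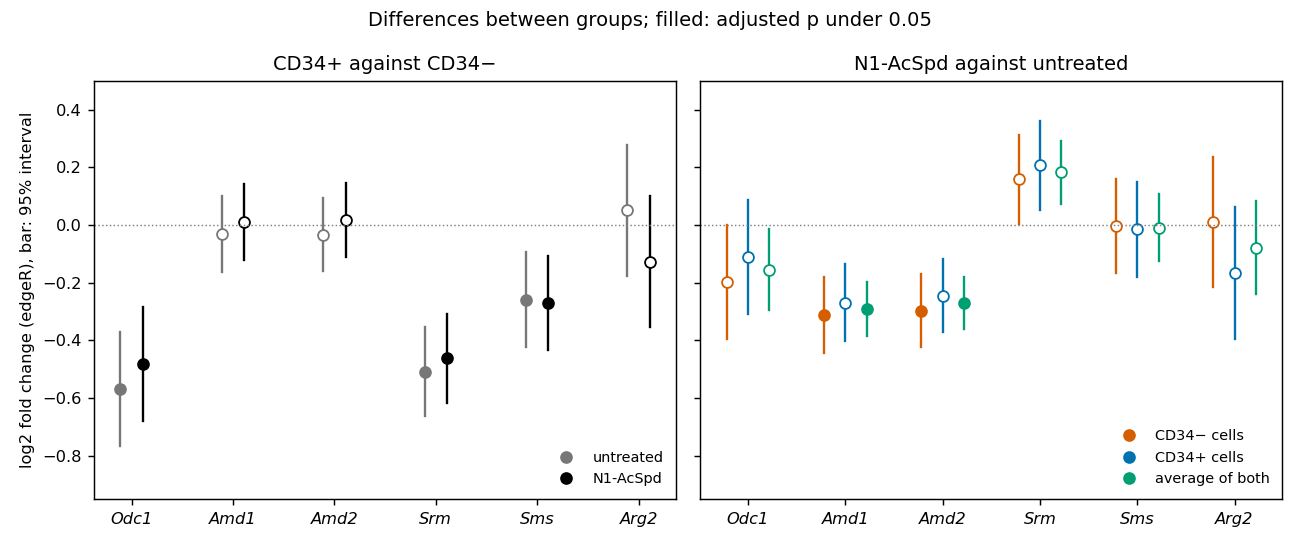
Log2 fold changes of 6 members with 95% intervals (edgeR), HFSCs against progenitors on the left and N1-AcSpd against untreated on the right, filled where the adjusted p was under 0.05. Odc1, Srm and Sms are filled and below 0 on the left with Amd1 and Amd2 near 0, and on the right Amd1 and Amd2 lie below 0 in both cell types with the Srm values above 0. Arg1 is left out because its intervals exceed the axis.

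Srm had positive values under N1-AcSpd without an edgeR call. From the values above, 3 of 4 mice were higher in CD34− and 4 of 4 in CD34+ cells, and the groups overlapped in both. The log2 differences were 0.16 (SE 0.072, unadjusted p 0.0435, edgeR adjusted p 0.350) and 0.21 (SE 0.072, unadjusted p 0.0123, edgeR adjusted p 0.246). Averaged, the value was 0.18 (SE 0.051, edgeR adjusted p 0.0550), just outside the threshold. It passed with mouse as a block (0.18, adjusted p 0.0225), with library totals (0.19, adjusted p 0.0385), with DESeq2 (0.19, adjusted p 0.0095), and when 1 library was dropped from N1-AcSpd CD34− (mouse 1, 0.21, 0.0336), untreated CD34+ (mouse 2, 0.20, 0.0422) or N1-AcSpd CD34+ cells (mouse 4, 0.20, 0.0380).

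Because Srm and Amd1 had opposite signs under N1-AcSpd, their counts were also set against each other within each library, a ratio that no scaling of libraries can move. In untreated CD34− libraries there were 0.628, 0.598, 0.589 and 0.604 Srm UMIs per Amd1 UMI, while treated CD34− libraries gave 0.775, 0.837, 0.909 and 0.83. Untreated CD34+ libraries gave 0.434, 0.491, 0.409 and 0.406, while treated CD34+ libraries gave 0.576, 0.598, 0.639 and 0.605. The ratio was higher after N1-AcSpd in all 4 mice in both cell types, and within a cell type the treated and untreated libraries did not overlap. N1-AcSpd CD34+ libraries (mean 0.605, SD 0.026, n = 4) overlapped the untreated CD34− libraries (mean 0.605, SD 0.017, n = 4). The levels behind these ratios differed, with both genes lower in the N1-AcSpd CD34+ libraries. Srm was at a mean of 36.16 against 44.59 CPM, and Amd1 at 59.88 against 73.72 CPM. The ratio was chosen after the values were seen and is given as a description. Its Amd1 count cannot be assigned among Amd1, Amd2 and Amd-ps3, so it is not a ratio of the transcripts of Srm and Amd1 alone.

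**Figure D4:**
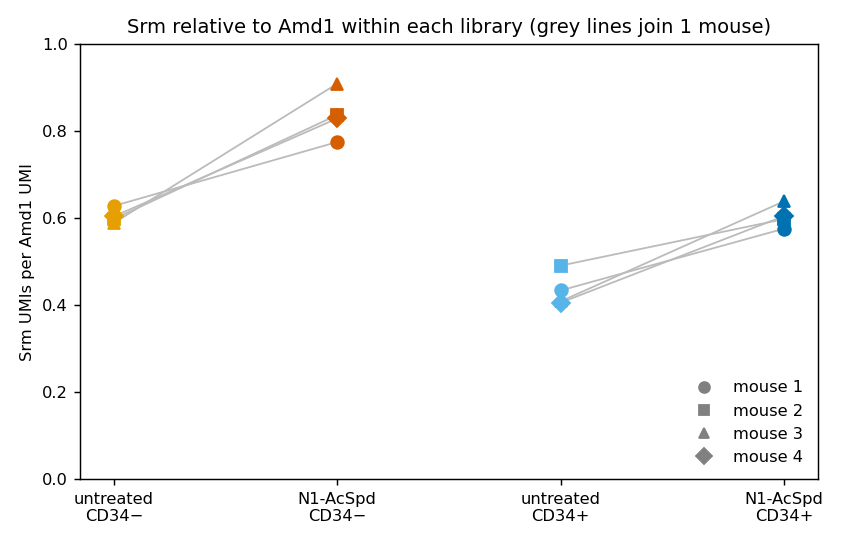
Srm UMIs divided by Amd1 UMIs in each library (vertical axis from 0 to 1), by group, with 1 symbol per mouse and grey lines joining the untreated and N1-AcSpd libraries of the same mouse and cell type. All 8 lines rise, from 0.589 to 0.628 up to 0.775 to 0.909 in CD34− cells and from 0.406 to 0.491 up to 0.576 to 0.639 in CD34+ cells.

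Odc1 was lower after N1-AcSpd in 4 of 4 mice in each cell type but did not pass the test. Its log2 difference was -0.20 (95% interval -0.39 to -0.0003, unadjusted p 0.0497, edgeR adjusted p 0.366) in CD34− cells, where the untreated libraries were widely spread, and -0.11 (-0.31 to 0.09, adjusted p 0.692) in CD34+ cells. Sms gave -0.003 (-0.17 to 0.16) and -0.01 (-0.18 to 0.15), and Arg2 gave 0.01 (-0.22 to 0.24) and -0.17 (-0.40 to 0.06), with adjusted p from 0.557 to 1. These intervals give the precision reached with 4 libraries a group. A member that did not pass the test is not thereby shown to be unchanged. Arg1 had 51 UMIs against 33 in CD34− cells, a rate ratio of 1.27 (exact binomial 95% interval 0.804 to 2.03), and 8 against 2 in CD34+ cells, a ratio of 3.8 (0.759 to 36.8), and it passed in neither (edgeR adjusted p 0.921 and 0.404).

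Whether N1-AcSpd acted differently in the 2 cell types was tested by the interaction. edgeR called 0 of 7 members and 0% of all genes, while an unadjusted p under 0.05 was reached by 0 members and 799 genes. By DESeq2 0 members and 72 genes were called. The Amd1 values differed between the cell types by 0.04 (95% interval -0.15 to 0.23), those of Srm by 0.05 (-0.17 to 0.27) and those of Odc1 by 0.09 (-0.19 to 0.36), each with an adjusted p of 1.

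The steps around these enzymes were followed in 30 further genes, of which 27 were tested. Between the cell types 14 were called in untreated cells, 7 higher and 7 lower in HFSCs, and 15 in N1-AcSpd cells, 7 higher and 8 lower, beside 32.1% and 33.3% of all genes. Their median log2 values were -0.03 and -0.13, against 0.02 and -0.01 for all genes. Under N1-AcSpd 2 were called in CD34− cells (1 in each direction), 0 in CD34+ cells by edgeR (7 at an unadjusted p under 0.05, 6 by DESeq2) and 6 on average (4 higher and 2 lower), with a median of 0.09 on average against -0.01 for all genes. The shares of all genes were 0.614% called in CD34− cells, 0.325% called, 13.2% at that unadjusted p and 2.22% by DESeq2 in CD34+ cells, and 4.87% called on average.

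Among genes that supply and use arginine and ornithine, the arginine transporter Slc7a1 was lower in HFSCs, at 23.8 ± 1.68 against 32 ± 1.85 CPM in untreated cells (SD, n = 4, log2 -0.43, edgeR adjusted p 0.0104). Argininosuccinate synthase Ass1 was lower as well (log2 -1.03, adjusted p 5.55e-06), and ornithine aminotransferase Oat, which takes ornithine away from the pathway, was higher (log2 0.37, adjusted p 1.27e-06). The 3 genes had the same directions and calls in N1-AcSpd cells. Of the S-adenosylmethionine synthetase genes, the regulatory subunit Mat2b was higher in HFSCs (log2 0.43, adjusted p 0.00195), and the catalytic subunit Mat2a was higher after N1-AcSpd on average (log2 0.33, edgeR adjusted p 0.022). Apip, of the pathway that salvages the by-product methylthioadenosine, was higher in HFSCs (log2 0.54, adjusted p 2.93e-05) and fell after N1-AcSpd in CD34− cells from 13.9 ± 1.26 to 9.79 ± 0.443 CPM (log2 -0.50, adjusted p 0.00596).

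Of the regulators of ornithine decarboxylase, antizyme Oaz2, which targets the enzyme for degradation, was higher in HFSCs (18.2 ± 1.10 against 11.9 ± 0.795 CPM, log2 0.61, edgeR adjusted p 1.75e-05), and so was antizyme inhibitor Azin2 in untreated cells (log2 0.53, adjusted p 0.0362). Antizyme inhibitor Azin1, which frees the enzyme from antizyme, was lower after N1-AcSpd on average (log2 -0.29, edgeR adjusted p 0.00712). Of the acetylating and oxidizing enzymes, Sat1, which forms N1-acetylspermidine, was lower in HFSCs (68.7 ± 7.43 against 112.4 ± 12.3 CPM, log2 -0.71, adjusted p 0.000547). Sat1 was higher after N1-AcSpd in CD34− cells, at 170.8 ± 26.9 CPM (log2 0.60, adjusted p 0.0456), and on average (log2 0.53, adjusted p 0.00559). Spermine oxidase Smox was lower in HFSCs (log2 -0.82, adjusted p 0.000261) and the acetylpolyamine oxidase Paox higher (log2 0.33, adjusted p 0.00686).

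Spermidine is also the substrate for hypusine, the modified residue of the translation factor eIF5A. Eif5a was lower in HFSCs, at 379.6 ± 9.20 against 469.5 ± 8.34 CPM (log2 -0.31, edgeR adjusted p 9.56e-06), and so was the hydroxylase Dohh (log2 -0.37, adjusted p 0.00153). The relative Eif5a2 had higher values in HFSCs in both conditions (log2 0.73, adjusted p 0.0573 untreated, and 0.76, adjusted p 0.0237 with N1-AcSpd). Only the second was called. Eif5a was higher after N1-AcSpd on average (log2 0.09, edgeR adjusted p 0.0447). Myc, the transcription factor for which Odc1 is a textbook target, was lower in HFSCs in both conditions (log2 -0.22, adjusted p 0.0366, and -0.23, adjusted p 0.0308). Its binding motif, the E-box CACGTG (the same on both strands), stood in 1 of the 7 promoter windows found for 5 members, at base -196 from the start in one of 2 Sms windows (chrX:157492238-157492537), and in 7.15% of all windows of 300 bases. The windows of Odc1, Amd1, Amd2 and Agmat did not hold these letters. Only 250 bases before to 50 after each start were searched, so sites elsewhere in or around these genes were not looked for.

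Across the 16 libraries, the genes whose log2 levels followed each member most closely were looked for among 9223 protein-coding genes (9222 for Arg2). Srm was followed by Npm1, a nucleolar protein of ribosome assembly, with a Pearson r of 0.975, then by Rab5if (0.970) and the mRNA-binding protein Serbp1 (0.969). Odc1 was followed by the transcription factor Klf10 (0.944), then Phkg1 (0.939) and Olfr729 (0.938), and Sms by the ribosomal protein gene Rpl5 (0.929), the chaperonin subunit Cct2 (0.928) and Dhx32 (0.915). For Amd1 the first was Amd2 (0.997), the same measurement, and after it the cold-inducible RNA-binding protein Rbm3 (0.854) and the elongation factor Supt5 (0.840). Arg2 was followed less closely, by the lysosomal mannosidase Man2b1 (0.819), Fkbpl (0.755) and Chd8 (0.754). These values are descriptions: the libraries share mice, and differences between cell types or between treated and untreated libraries can enter them.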

How the data were processed

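RNA of sorted cells was measured by 3′ sequencing with UMIs in 16 libraries, 4 in each of 4 groups taken from the labels, and by the labels' mouse field every mouse gave 1 library to each group. The authors separated reads by barcode with FLEXBAR, placed second reads on mm10 with Kallisto (0.45.0 in the submitters' processing notes), assigned tags with BEDTools and counted unique UMIs in R. The deposited values are these counts, without normalization. The 156050 empty cells were read as 0. The annotation release and whether strand was used are not given in the sources used here. Of the 32989 identifiers, 32927 were matched to a symbol in GENCODE M21 (GRCm38, which is mm10).

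Testing covered the 19049 genes whose counts averaged 5 or more, with edgeR 4.0.16 (TMM, quasi-likelihood, 1 fit of all 16 libraries, 1 mean per group, two-sided, Benjamini-Hochberg, threshold 0.05). The SE was obtained as the absolute log2 fold change over the root of F. CPM used TMM-scaled totals, and means are given ± SD. CPM was not divided by length, since each molecule gives 1 tag. Counts of Amd2, Amd-ps3 and Srm were set against those of Amd1 within libraries. Library totals ran from 15480075 to 29074855 UMIs, and intervals from counts (95%, exact binomial) cover counting error only. Mouse was a block in an alternative: same-mouse libraries come from 1 animal, and their deviations from group means correlated with a mean r of 0.0133 (-0.0689 to 0.0858, 24 pairs). The block still raised the number of genes called under N1-AcSpd. Other alternatives were DESeq2 1.42.0, scaling by its size factors or by library totals, no filter or filterByExpr, only the compared groups, Amd1 and Amd2 summed, and each library or mouse left out. Fits were also run on simulated data with independent libraries and no mouse effect, which cannot bear on the sharing of mice.

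The members, neighbouring genes and markers were chosen with earlier results of these data known. All 8 members are named. Of the neighbouring genes, up to 3 a list that were called at least once are named, largest log2 fold change first. The nearest genes in level were the 3 of highest r for each member with a mean count of at least 50. Promoters are RefSeq windows (250 bases before to 50 after the start). Windows were found for Odc1, Amd1, Amd2, Sms and Agmat. Those of Srm, Arg1 and Arg2 were not analysed here, nor were protein sequences. Transcripts were aligned with Biopython 1.88.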

Additional observations from a re-analysis of the deposited data

Results flagged for a closer look

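Among 30 sets of 4 libraries (a member in a group) 4 had a library apart from the other 3, by the gap to its neighbour relative to the whole range. Chance alone flags about 1 in 20 such sets of continuous values. That rate does not hold for Agmat, where a set with a UMI in only 1 library is always flagged. Amd1 was highest in the N1-AcSpd CD34− library of mouse 2, at 62.8 CPM against 57.9 to 58.7 in the others, and this library still lay below all untreated CD34− libraries. Srm was lowest in the N1-AcSpd CD34+ library of mouse 4, at 33.2 CPM against 36.9 to 37.5, the same mouse that had the lowest untreated CD34+ value. Agmat at 0.0451 CPM in the untreated CD34− library of mouse 4 and at 0.0743 CPM in the N1-AcSpd CD34+ library of mouse 1 stands for 1 and 2 UMIs.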

How the results depend on the processing

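Odc1 and Srm between the cell types and the averaged Amd1 fall kept direction and call under every alternative run. Mouse as a replicate block changed 1 call, that of Srm on average (0.18, adjusted p 0.0225), and left the averaged Amd1 value at -0.29 (adjusted p 0.00362). Amd1 in CD34− cells had an adjusted p of 0.0275 with the block. Of all genes, those called under N1-AcSpd rose with it from 117 to 351 in CD34− cells, from 62 to 152 in CD34+ cells and from 928 to 1551 on average. Counts of members called moved as follows. Between untreated cell types 2 were called in place of 4 with only the compared groups in the fit, where Arg1 no longer passed the count filter. In each cell type comparison 3 were called with library totals (Sms lost) or filterByExpr (Arg1 not tested), and 3 to 4 over runs leaving out a library or mouse. Under N1-AcSpd in CD34− cells 1 was called with DESeq2 size factors (Amd2 at an adjusted p of 0.0503), and 0 with no low-count filter (Amd1 0.0953) or only the compared groups (0.0890). It was 0 to 2 over runs leaving out a library or mouse. In CD34+ cells DESeq2 called 2, and on average 1 to 3 were called over the leave-out runs and 3 with DESeq2, library totals or the block, by the addition of Srm. The cause was not tested.

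Signs turned in 52 values of 13 results, none called and none over 0.0517 on the log2 scale at first. With library totals these were Amd1 (0.083) and Amd2 (0.081) between untreated cell types and Sms under N1-AcSpd in CD34− cells (0.00354). With DESeq2 they were Sms in CD34− (0.0058) and CD34+ cells (0.011), in the interaction (0.0047) and on average (0.0082), and with DESeq2 size factors Sms in the interaction (0.0011). Runs that left out a library or mouse gave these ranges. Between untreated cell types Amd1 ran from -0.097 to 0.020, Amd2 from -0.096 to 0.019 and Arg2 from -0.040 to 0.11, and between N1-AcSpd cell types Amd1 from -0.044 to 0.050 and Amd2 from -0.024 to 0.056. Under N1-AcSpd in CD34− cells Sms ran from -0.054 to 0.050 and Arg2 from -0.057 to 0.097, in CD34+ cells Sms from -0.063 to 0.068, and on average Sms from -0.036 to 0.018. In the interaction Amd1 ran from -0.022 to 0.12, Amd2 from -0.00346 to 0.13, Srm from -0.044 to 0.11 and Sms from -0.076 to 0.12.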
